A study of Mus musculus with 42 samples.

Results

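The interferon regulatory factors (IRFs) are a family of transcription factors, and the RNA levels of 8 of their genes, Irf1, Irf2, Irf3, Irf4, Irf5, Irf7, Irf8 and Irf9, were measured in mouse bone-marrow-derived macrophages (BMDM). The members were the rows of the gene count table whose Ensembl identifier carries one of these symbols, and all 8 were found among 37310 genes. All 8 also passed the filter on low counts, which left 11624 genes for testing. The cells came from young adult male mice on a C57BL/6 background. Those labelled KO carried an Irf5 gene flanked by loxP sites and the LysM-Cre allele, a Cre recombinase expressed from the Lyz2 locus to delete the gene in myeloid cells, and the others were labelled wild type (WT). Whether the WT mice carried either allele is not given in the sources used here. Marrow cells of either genotype were grown into macrophages with conditioned medium, and were taken untreated (Control) at 0, 2 or 24 h, or after 2 or 24 h of treatment. The treatments were LPS, the lipopolysaccharide of bacteria, and the saturated fatty acid palmitate. There were 14 groups of 3 RNA-seq libraries, 42 in all. The labels do not say whether the 3 libraries of a group came from separate animals or cultures, so p-values measure the spread between these libraries, which may be technical.

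IRF proteins share a DNA-binding domain that recognises interferon-stimulated response elements and related sites. Irf3, Irf5 and Irf7 encode members that lie inactive in the cytoplasm until kinases downstream of Toll-like receptors and nucleic acid sensors phosphorylate them, after which they switch on type I interferon and cytokine genes. IRF9 is the DNA-binding part of ISGF3, the complex that answers type I interferon, and Irf7 is itself a gene switched on by interferon. IRF1 is an inducible activator of interferon response genes, IRF2 binds the same sites and can oppose it, and IRF4 and IRF8 are lineage factors of lymphocytes, dendritic cells and macrophages that often bind DNA with PU.1. In macrophages IRF5 is known for driving inflammatory cytokine genes, and IRF4 for genes of alternative activation.

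Levels are given as CPM, a gene's counts relative to the library total, with totals scaled by the trimmed mean of M values (TMM), and error as the SD over 3 libraries. A gene is said to have risen or fallen where its adjusted p was under 0.05 in a quasi-likelihood F test in edgeR, adjusted by Benjamini-Hochberg over the 11624 genes, and every adjusted p below is from this test. The total count of a library lay between 2848793 and 7743442, and 3 counts, the floor used here, stand for 0.387 CPM in the deepest library and 1.05 CPM in the shallowest. The libraries held the markers of macrophages, 7 of 7 at a mean of at least 10 CPM, with a summed level between 4817 and 9008 CPM. Markers of T or NK cells summed to 2.6 CPM or less and those of dendritic cells to between 2.15 and 12.7 CPM. Of the 6 B cell markers only Ighm reached a mean of 10 CPM, and the list summed to between 15.8 and 51.5 CPM. Markers of granulocyte precursors (4 of 8 at 10 CPM or more) ranged in sum from 19.3 to 83.7 CPM over the WT libraries and from 42 to 204 CPM over the KO libraries. Fibroblast markers (2 of 5) ranged in sum from 0 to 58.7 CPM in WT and from 0 to 306 CPM in KO. Irf5 was not lower in any condition in the libraries labelled KO. Groups are therefore named by their labels, and each direction is that of the libraries carrying the label, whatever their true genotype.

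Irf5 and Irf8 were the most abundant members of the family in unstimulated macrophages, and Irf4 was close to the detection floor. To compare genes with each other, CPM was divided by the kilobases of the gene's exons. In WT Control 0 h, Irf5 stood at 75.9 ± 3.6 and Irf8 at 35.6 ± 3.14 CPM per kilobase, with no overlap between them or with the next gene. Irf2, Irf1, Irf7 and Irf9 followed at 11.2 ± 1.62, 9.55 ± 1.03, 8.82 ± 2.58 and 8.53 ± 0.983 CPM per kilobase, an order in which neighbours overlapped in their libraries. Irf3 (5.61 ± 0.319) and Irf4 (0.203 ± 0.0856 CPM per kilobase) came last and were separated from their neighbours. Irf5 and Irf8 held the first 2 places in this order in the 10 groups without LPS. When the longest transcript of each gene was used as its length, places changed in 10 of 14 groups, all below the first 2 except at LPS 2 h, where Irf1 passed Irf5.

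Under LPS the family had another make-up at the early than at the late time, given here as shares with no test. Irf5 contributed 50.2% ± 2.05 of the summed CPM per kilobase of the 8 genes in WT Control 2 h and 53.1% ± 1.1 in WT Control 24 h (SD, n = 3 each). At LPS 2 h its share was 41.2% ± 0.64 beside 40.2% ± 0.219 for Irf1, whose share in Control 2 h was 7.42% ± 0.271. At LPS 24 h Irf7 held 70.4% ± 0.796, against 3.74% ± 0.795 in Control 24 h, and Irf5 held 14.7% ± 0.709. The summed level was 172 ± 2.68 CPM per kilobase in WT Control 2 h, 317 ± 11.9 at LPS 2 h and 604 ± 12.9 at LPS 24 h. In the libraries labelled KO the same sum was 185 ± 1.92, 326 ± 12.3 and 673 ± 35.4 CPM per kilobase, and Irf7 held 67.9% ± 0.309 of it at LPS 24 h.

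**Figure D1:**
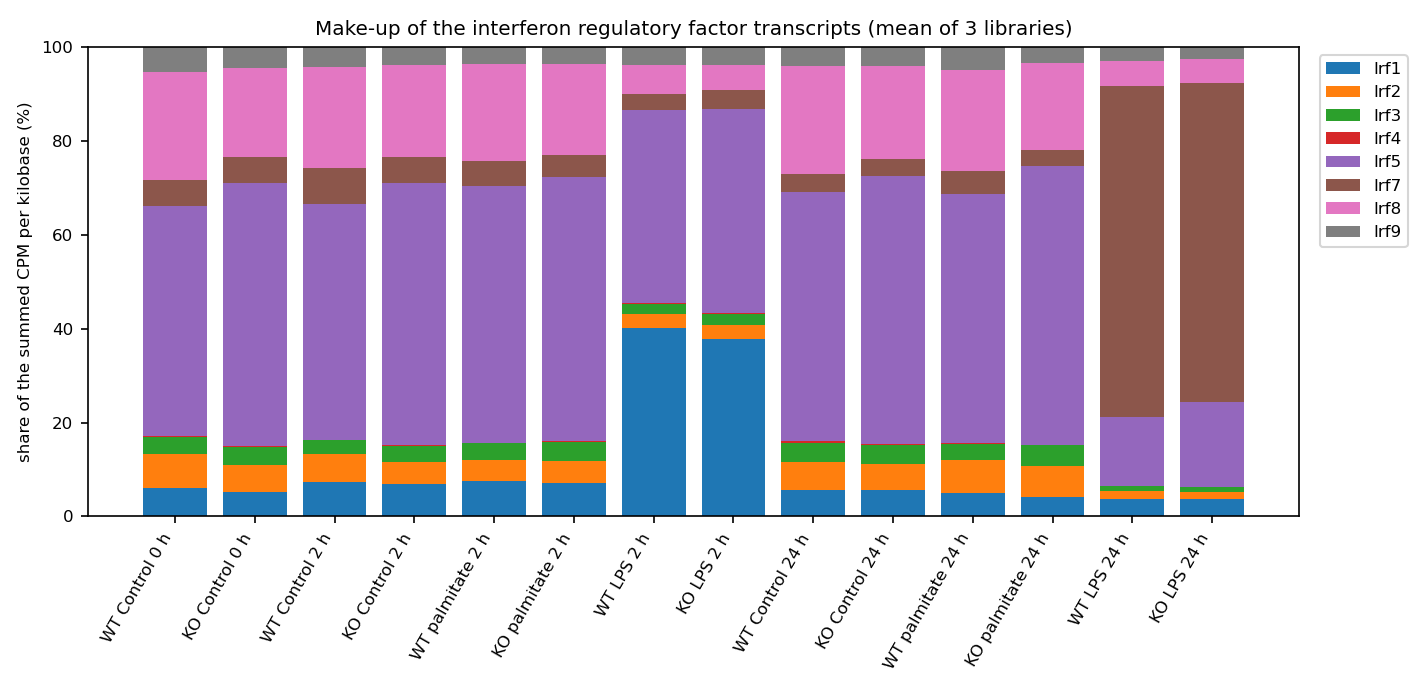
Share of each gene, in percent, of the summed CPM per kilobase of the 8 IRF genes, as the mean of 3 libraries in each of 14 groups. Irf5 is the largest block in the groups without LPS, Irf1 nearly equals it at LPS 2 h in WT (40.2% against 41.2%), and Irf7 fills 70.4% in WT and 67.9% in KO at LPS 24 h.

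The stretch before the start site is shown for 5 members that differ in their response: Irf1 and Irf8, which moved in opposite directions at LPS 2 h, Irf7, which rose most at 24 h, Irf2, which LPS left below the threshold, and Irf5, the gene of the deletion. The sequences are from RefSeq (GRCm38.p6), 5′ to 3′ on the strand of the gene, and end at the start site: Irf1 at chr11:53769764-53770013 (plus strand), Irf8 at chr8:120736108-120736357 (plus), Irf2 at chr8:46739495-46739744 (plus), Irf5 at chr6:29526375-29526624 (plus) and Irf7 at chr7:141266482-141266674 (minus, 193 bases, ending where the annotated gene begins). Capitals mark matches, on either strand, to GAAA, any 2 bases and GAAA (the core of an interferon-stimulated response element, ISRE), to TTC, any 3 bases and GAA (a gamma-activated site, GAS), or to GGG, any 3 bases and TTCC (a narrow form of the kappaB site, bound by NF-kappaB).
Irf1: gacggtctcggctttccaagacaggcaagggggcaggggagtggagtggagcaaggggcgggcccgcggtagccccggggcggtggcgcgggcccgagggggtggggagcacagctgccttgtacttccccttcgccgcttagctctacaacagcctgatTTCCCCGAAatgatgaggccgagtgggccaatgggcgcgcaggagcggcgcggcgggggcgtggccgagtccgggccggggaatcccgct
Irf8: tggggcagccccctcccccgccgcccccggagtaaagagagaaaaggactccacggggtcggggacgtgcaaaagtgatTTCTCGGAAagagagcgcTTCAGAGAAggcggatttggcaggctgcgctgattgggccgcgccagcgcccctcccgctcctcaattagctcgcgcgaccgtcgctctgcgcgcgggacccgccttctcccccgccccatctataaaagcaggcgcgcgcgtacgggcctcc
Irf2: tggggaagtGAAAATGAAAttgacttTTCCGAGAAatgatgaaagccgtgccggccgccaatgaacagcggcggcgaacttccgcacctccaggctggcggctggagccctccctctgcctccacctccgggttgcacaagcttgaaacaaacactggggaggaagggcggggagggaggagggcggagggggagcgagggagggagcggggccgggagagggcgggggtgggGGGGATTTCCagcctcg
Irf7: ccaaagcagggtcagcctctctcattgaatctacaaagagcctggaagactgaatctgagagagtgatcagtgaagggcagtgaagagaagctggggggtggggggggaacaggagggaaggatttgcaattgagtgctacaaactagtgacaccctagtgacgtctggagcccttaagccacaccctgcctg
Irf5: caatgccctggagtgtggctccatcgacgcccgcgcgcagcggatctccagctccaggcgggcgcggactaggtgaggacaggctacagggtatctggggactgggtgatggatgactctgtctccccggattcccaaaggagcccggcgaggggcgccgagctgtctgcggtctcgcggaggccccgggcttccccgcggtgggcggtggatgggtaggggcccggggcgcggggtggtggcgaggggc
In the 250 bases before its start Irf1 held 1 GAS match, 90 bases upstream, and Irf8 held 2, at 171 and 153 bases upstream. Irf2 held an ISRE match at 241, a GAS match at 224 and a kappaB match at 17 bases upstream. The last 13 bases of the Irf2 window lie inside its annotated gene, and the kappaB match crosses that annotated start. No match lay in the windows of Irf3, Irf4, Irf5 and Irf7, and those of Irf9 lay inside its annotated gene and were not searched. Of 32851 windows of this length, 2.98% held the ISRE letters, 7.02% the GAS letters and 4.65% the kappaB letters. The matches describe letters and not binding, and sites with other letters were not marked. The unmarked ggggaatccc near the end of the Irf1 stretch is close to the kappaB letters used but does not match them. A stretch without a match is therefore not shown to lack such a site.

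At 2 h of LPS in WT, 5 of the 8 members changed, 4 higher and 1 lower, where 23.1% of all genes tested changed (14% higher and 9.1% lower). Irf1 rose most. Its 3 LPS libraries stood at 531, 496 and 494 CPM and the Control 2 h libraries at 49.6, 53.9 and 49.2 CPM, a 9.94-fold difference with no overlap (3.31 on the log2 scale, SE 0.09, adjusted p 4.45e-33). The level of RNA in a library of many cells does not tell apart fewer cells of a type and less RNA per cell, here and in each result below. Irf8 fell from 273, 262 and 256 CPM to 146, 127 and 135 CPM, to 0.515 of the Control level (log2 fold change -0.96, SE 0.07, adjusted p 1.72e-16). Irf5 rose from 250, 245 and 259 CPM to 389, 377 and 373 CPM, which is 1.51-fold (SE 0.06 on the log2 scale, adjusted p 1.63e-12). These 3 genes were separated from Control in every library, and per kilobase Irf1 (128 ± 5.31) now overlapped Irf5 (131 ± 2.84 CPM per kilobase). The share of all genes separated in this way was not counted, here or below.

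Irf9 and Irf4 also rose at this time in WT. Irf9 stood at 79.8, 63.3 and 51.4 CPM against 38.1, 42 and 36.3 CPM in Control, which is 1.64-fold (SE 0.11 on the log2 scale, adjusted p 1.48e-06), with a wide spread among the LPS libraries. Irf4 had only 3, 11 and 32 counts in the LPS libraries and 5, 1 and 5 counts in Control, and its log2 fold change was 2.38 with an SE of 0.65 (adjusted p 0.00427). Summed over libraries this was 3.53 CPM (exact Poisson 95% interval 2.58 to 4.7) against 0.612 CPM (0.306 to 1.1), and such intervals cover counting error only. The third LPS library decided the Irf4 call: without it the log2 fold change was 1.49 and the adjusted p 0.194. The dendritic cell markers summed to 5.06 ± 3.48 CPM at LPS 2 h and 4.35 ± 1.33 CPM in Control 2 h, and the B cell markers to 35.1 ± 3.44 and 26.4 ± 1.15 CPM; their part in the Irf4 and Irf8 results was not tested. Irf2, Irf3 and Irf7 did not pass the threshold, with log2 fold changes of -0.13 (interval of 2 SE on each side, -0.31 to 0.05), 0.40 (0.05 to 0.75) and -0.30 (-0.76 to 0.16). The libraries of Irf3 did not overlap all the same, at 23.6 ± 0.85 CPM under LPS and 17.8 ± 0.367 CPM in Control. Irf7 lay between 38.4 and 44.7 CPM at 2 h of LPS and between 42.8 and 61.7 CPM in Control.

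**Figure D2:**
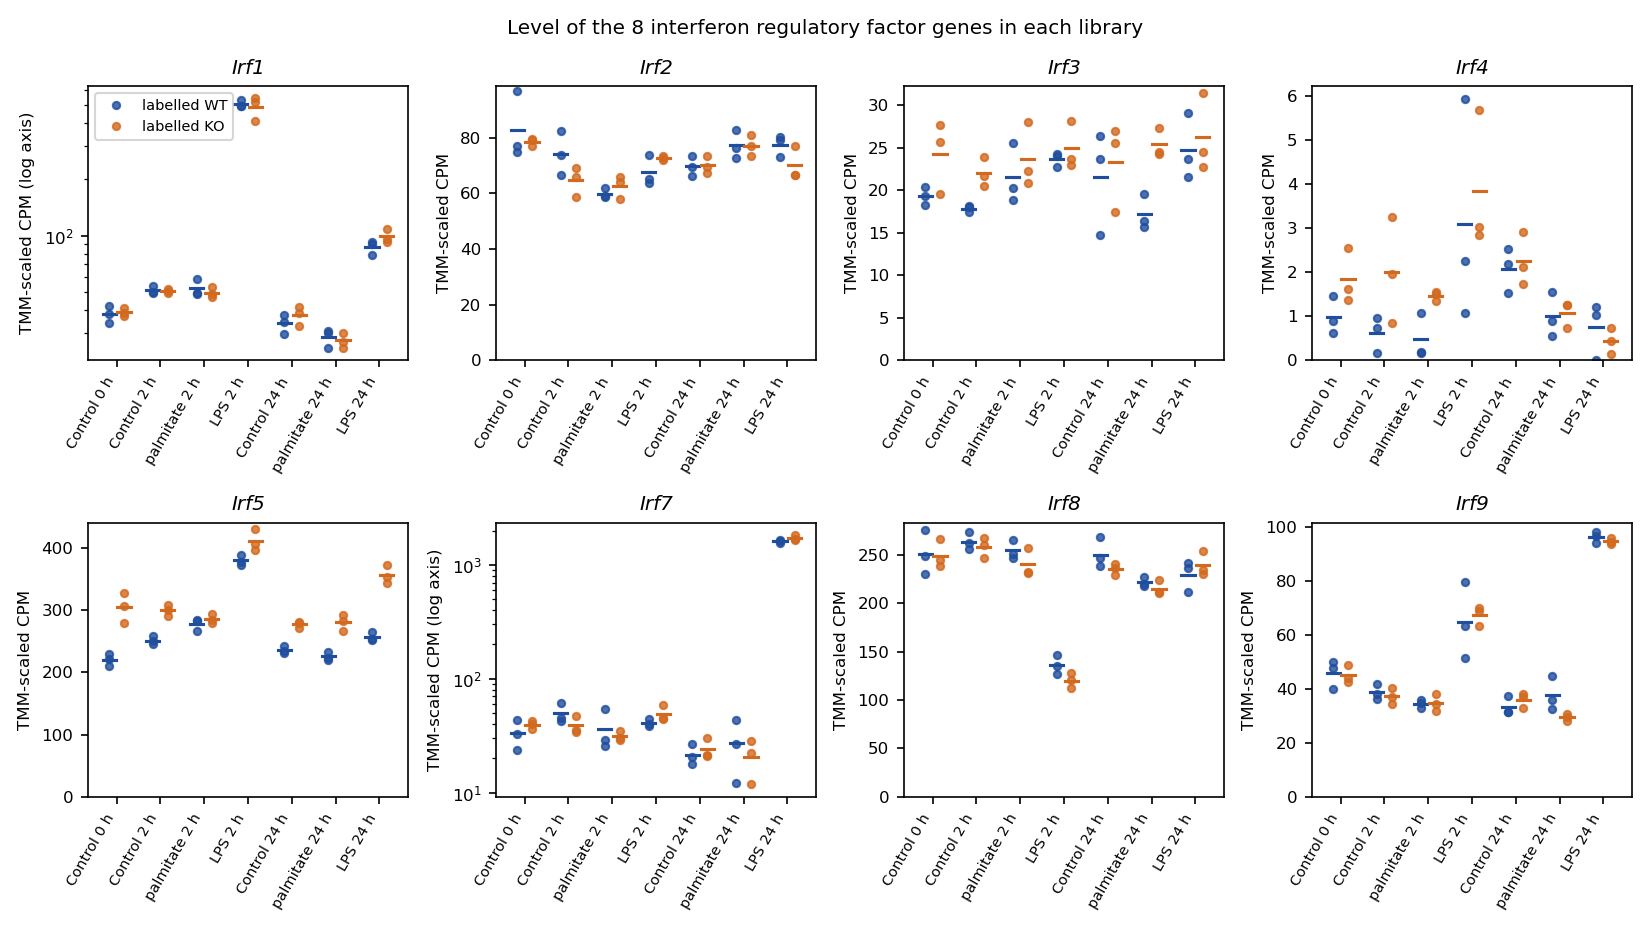
TMM-scaled CPM of the 8 IRF genes in each of 42 libraries by condition, with libraries labelled WT in blue and KO in orange and the group mean as a line. Irf1 and Irf7 are on a log axis, the others start at 0. Irf1 stands apart at LPS 2 h, where Irf8 is at its lowest, and Irf7 stands apart at LPS 24 h, where its 6 libraries lie between 1547 and 1831 CPM.

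The libraries labelled KO gave 4 changed members at 2 h of LPS, 3 higher and 1 lower, with 23.9% of all genes called. Irf1 rose to 410, 542 and 519 CPM from 51.9, 50.5 and 49.0 CPM, which is 9.75-fold (adjusted p 8.09e-33). Irf8 fell to 121, 128 and 112 CPM from 247, 260 and 267 CPM, to 0.466 of Control (log2 fold change -1.10, SE 0.07, adjusted p 1.77e-18). Irf5 rose 1.37-fold (adjusted p 3.3e-09) and Irf9 1.82-fold (adjusted p 1.75e-08). Every library with LPS was separated from every Control library for these 4 genes. Irf4 did not pass here, with 15, 14 and 14 counts under LPS and 18, 11 and 5 counts in Control (log2 fold change 0.87, SE 0.56, adjusted p 0.289).

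At 24 h of LPS the order had turned, with Irf7 highest. In WT 3 members rose and none fell among the 8, where 39.5% of all genes were called (19.6% higher and 19.9% lower). Irf7 stood at 1547, 1630 and 1642 CPM against 17.7, 20.6 and 26.7 CPM in Control 24 h, which is 72.1-fold (log2 fold change 6.17, SE 0.22, adjusted p 4.49e-29). Irf9 stood at 94.1, 98.3 and 96.8 CPM against 31.4, 31.4 and 37.4 CPM, which is 2.86-fold (adjusted p 9.22e-17). Irf1 remained above Control at 90.0, 78.9 and 92.5 CPM against 34.2, 29.8 and 37.4 CPM, which is 2.57-fold (adjusted p 9.72e-16). No library of either condition overlapped the other for these 3 genes.

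None of the other members passed the test at 24 h in WT. Irf8 was at 229 ± 15.9 CPM under LPS and 250 ± 15.8 CPM in Control (log2 fold change -0.12, interval -0.26 to 0.01). Irf5 was at 257 ± 6.84 and 236 ± 5.84 CPM, a log2 fold change of 0.12 that missed the threshold (adjusted p 0.0856) although no library overlapped. Irf2 and Irf3 differed by 0.15 (interval -0.02 to 0.33) and 0.22 (-0.12 to 0.55). Irf4 was below Control without passing the test, at 6, 0 and 8 counts against 9, 9 and 15 counts (log2 fold change -1.41, adjusted p 0.0798) with no overlap.

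In the libraries labelled KO, 5 members changed at 24 h of LPS, 4 higher and 1 lower, with 40.9% of all genes called. Irf7 rose to 1662, 1831 and 1683 CPM from 21.4, 29.9 and 20.8 CPM, which is 71.8-fold (adjusted p 3.04e-29). Irf9 rose 2.64-fold (adjusted p 9.44e-16) and Irf1 2.59-fold (adjusted p 2.07e-16). Irf5 rose here, to 354, 372 and 343 CPM from 272, 279 and 281 CPM, which is 1.28-fold (adjusted p 4.13e-07). Irf4 fell, from 7, 16 and 15 counts to 3, 4 and 1 counts (log2 fold change -2.35, SE 0.70, adjusted p 0.00516), and 2 of the 3 LPS libraries were at or under the floor of 3 counts. Summed over libraries, Irf4 stood at 0.423 CPM (Poisson interval 0.183 to 0.834) under LPS and 2.29 CPM (1.62 to 3.15) in Control. In the same libraries the dendritic cell markers summed to 6.88 ± 1.83 CPM under LPS and 11.7 ± 0.874 CPM in Control, and the B cell markers to 24 ± 5.93 and 40.6 ± 8.61 CPM. Their part in the fall of Irf4 was not tested.

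**Figure D3:**
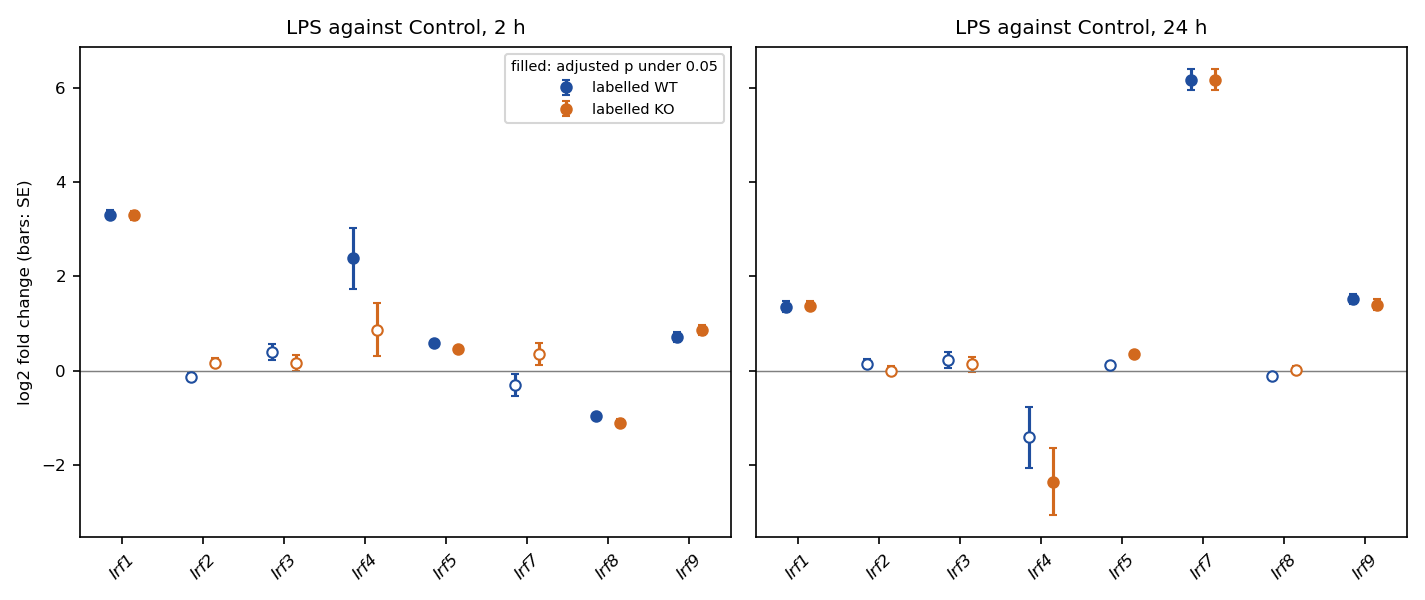
Log2 fold change of the 8 IRF genes under LPS against Control of the same time and genotype, at 2 h (left) and 24 h (right), with bars of 1 SE, filled where the adjusted p was under 0.05. Irf1 leads at 2 h (3.31 in WT, 3.29 in KO) where Irf8 is below 0, and Irf7 leads at 24 h (6.17 in both).

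The change between the early and the late LPS response was tested as a contrast of its own. In WT 6 of 8 members passed, where 32.6% of all genes did, and in the libraries labelled KO 5 of 8, where 33.4% did. Irf7, Irf8 and Irf9 had a higher log2 fold change under LPS at 24 h than at 2 h and Irf1 and Irf4 a lower one, in both genotypes. For Irf7 the difference was 6.47 (SE 0.31) in WT and 5.81 (SE 0.32) in KO. For Irf1 it was -1.95 (SE 0.14) and -1.91 (SE 0.14). The difference for Irf5 was also below 0 in WT (-0.47, SE 0.08, adjusted p 3.96e-06), and in KO its difference of -0.09 did not pass. Irf2 and Irf3 passed in neither genotype.

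Neighbouring genes share sequence with several members, and the sources used here do not state whether reads were counted by strand. Irf9 overlaps exons of Rnf31 on the same strand, and Rnf31, a ubiquitin ligase subunit of 85 to 391 counts, rose at 24 h of LPS in WT from 22.8 ± 1.74 to 52.3 ± 3.42 CPM (2.3-fold, adjusted p 5.3e-13) and at 2 h 1.37-fold (adjusted p 0.00294). Irf1 overlaps Gm17334 of the opposite strand, whose counts did not exceed 38 in a library and which rose at 2 h in WT (log2 fold change 2.71, adjusted p 0.000779) and in KO (2.40, adjusted p 0.00174). Irf7 overlaps Phrf1 on the other strand, and Phrf1 rose 1.29-fold at 2 h in WT (adjusted p 0.000198) but was not called at 24 h, when Irf7 rose. Irf5 and Irf3 overlap Tnpo3 and Bcl2l12 on the other strand, neither of which was called in any comparison made here. Reads that such pairs could share cannot be told apart, and among the members called under LPS this touches Irf9 at both times and Irf1 at 2 h.

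Under palmitate 1 member was called in 1 of 4 comparisons. The treatments of a time share their Control libraries, so the LPS and palmitate values are not independent. In WT no member was called at 2 h, with 3 at an unadjusted p under 0.05, or at 24 h, with 1, and DESeq2 called none at either time (of all genes, 0.275% and 0.852% were called by edgeR). In the libraries labelled KO none was called at 2 h by either tool, with 0 at an unadjusted p under 0.05 (0.112% of all genes called). At 24 h 1 of 8 was called, where 0.877% of all genes were. This was Irf1, which fell to 27, 25 and 30.1 CPM from 32.8, 38.6 and 41.2 CPM (log2 fold change -0.47, SE 0.12, adjusted p 0.0342), with no overlap of libraries. The call was lost without Control library 2 (-0.45, adjusted p 0.152) or 3 (-0.39, 0.301) or palmitate library 1 (-0.45, 0.138) or 2 (-0.41, 0.194). In WT the Irf1 value at 24 h was -0.24 (interval -0.48 to 0.00).

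The differences that did not pass are given with their intervals. Irf2 was the member farthest from Control for its error at 2 h in WT, at -0.31 (-0.49 to -0.13, adjusted p 0.17) with no overlap of libraries. Irf7 stood at -0.46 (-0.91 to -0.01) in the same comparison, with overlapping libraries. Irf7 was called when all genes with a count were fitted (adjusted p 0.000916), but that fit did not use a gene's own spread. At 24 h Irf4 differed by -1 (-2.26 to 0.26) in WT and -1.08 (-2.30 to 0.14) in KO, and Irf9 by -0.28 (-0.52 to -0.04) in KO. Irf5 differed from Control by 0.14 (interval 0.03 to 0.26) at 2 h and -0.07 (-0.18 to 0.05) at 24 h in WT, and by -0.07 (-0.18 to 0.04) and 0.01 (-0.10 to 0.13) in KO. Irf8 was lower by -0.17 (-0.30 to -0.04) at 24 h in WT and -0.13 (-0.26 to 0.00) in KO without passing the test. For Irf7 the intervals were wide, from -0.22 to 0.85 at 24 h in WT, where its palmitate libraries stood at 43.4, 12.2 and 26.9 CPM. This interval is that of the estimate and not a limit of detection. With 3 libraries a group, changes of Irf7 outside it could also go uncalled.

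Time in culture without treatment moved some members by small amounts. Against Control 0 h, averaged over both genotypes, 3 of 8 members were called at 2 h and 3 at 24 h, where 16.7% and 16.5% of all genes were. Irf1 rose by 0.40 (SE 0.08, adjusted p 7.18e-05) on the log2 scale at 2 h, from 38 ± 4.08 to 50.9 ± 2.64 CPM in WT. Irf9 fell by 0.26 (SE 0.08) at 2 h and by 0.39 (SE 0.08, adjusted p 0.000377) at 24 h, and Irf2 fell by 0.22 (SE 0.06) and by 0.20 (SE 0.06). Rnf31, which shares exons with Irf9, fell as well, by 0.35 (adjusted p 0.00123) at 2 h and by 0.36 (adjusted p 0.00115) at 24 h, and Gm17334, which overlaps Irf1, rose at 2 h (2.59, adjusted p 0.00904). Reads that these pairs could share cannot be told apart. Irf7 fell by 0.64 (SE 0.18, adjusted p 0.00795) at 24 h, from 33.3 ± 9.76 to 21.6 ± 4.58 CPM in WT and from 39.5 ± 2.85 to 24.0 ± 5.09 CPM in KO. The call of Irf7 was lost without WT Control 0 h library 2 (-0.52, adjusted p 0.0508), the call of Irf9 at 2 h without any 1 of 4 libraries (lowest value -0.23, highest -0.22), and those of Irf2 without any 1 of 3 libraries at either time (between -0.18 and -0.14). The first WT library of Control 0 h held the highest Irf2 level of all, at 96.6 CPM, against 74.8 and 77.1 CPM in the other two.

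Between the genotype labels, Irf5 was the one member called within a condition. This held in 4 of 7 conditions, in each of which 1 of 8 members was called, against 12.5% of all genes at Control 0 h, 0.49% at Control 2 h, 0.0688% at palmitate 24 h and 0.146% at LPS 24 h. No member was called at palmitate 2 h (0.146% of all genes), LPS 2 h (0.465%) or Control 24 h (0.12%), with 1, 2 and 1 members at an unadjusted p under 0.05, and DESeq2 called Irf5 at Control 24 h, as did the fit of only the groups compared (adjusted p 0.0193). The Irf5 difference was 1.38-fold at Control 0 h (adjusted p 9.12e-08), 1.39-fold at LPS 24 h (adjusted p 1.55e-07), 1.24-fold at palmitate 24 h (adjusted p 0.00272) and 1.19-fold at Control 2 h (adjusted p 0.0193). The last 2 calls depended on single libraries. At Control 2 h the call was lost by omitting WT library 1 or 2 or KO library 2 or 3 (log2 values from 0.24 to 0.26, adjusted p from 0.0775 to 0.137). At palmitate 24 h omitting WT library 1 or 3 or KO library 2 had the same effect (0.28 to 0.31, adjusted p 0.051 to 0.0712), as had fitting the compared groups alone (0.31, adjusted p 0.0508). The level of Irf5 in WT ran from 220 ± 10.4 CPM at Control 0 h over 251 ± 7.33 at Control 2 h, 236 ± 5.84 at Control 24 h, 226 ± 6.39 at palmitate 24 h 278 ± 8.91 at palmitate 2 h and 257 ± 6.84 at LPS 24 h to 380 ± 8.26 CPM at LPS 2 h. In the libraries labelled KO it ran in the same conditions over 305 ± 24.2, 300 ± 9.11, 278 ± 4.98, 281 ± 12.7, 286 ± 7.51, 356 ± 14.9 and 412 ± 17.1 CPM. A transcript that has lost floxed exons can still be counted over the rest of the gene, and exons were not counted separately, so the totals do not show whether the deletion took place.

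Beside Irf5, Irf3 was higher in the libraries labelled KO once the 7 conditions were averaged. In that contrast 2 of 8 members were called, both higher, where 11.4% of all genes were called (6.03% higher and 5.33% lower). Irf5 was higher by 0.27 (SE 0.02, adjusted p 8.09e-14) and Irf3 by 0.23 (SE 0.06, adjusted p 0.0113) on the log2 scale. The mean of Irf3 was higher in KO in 7 of 7 conditions, most at palmitate 24 h (24.5, 27.3 and 24.3 CPM against 15.7, 19.6 and 16.4 CPM) and least at LPS 2 h (24.9 ± 2.83 against 23.6 ± 0.85 CPM). The libraries of the 2 labels were fully separated for Irf3 at Control 2 h and palmitate 24 h and overlapped elsewhere. Without Control 0 h, where the 2 labels differed in the most genes, the averaged difference of Irf3 was 0.21 and no longer passed (adjusted p 0.0579). The marker lists of granulocyte precursors and fibroblasts reached higher maximum sums in the libraries labelled KO, with ranges that overlapped those of WT, as given above. The mean sum of the dendritic cell markers was also higher in KO in 7 of 7 conditions. It was 11.7 ± 0.874 against 5.32 ± 1.25 CPM at Control 24 h and 7.92 ± 0.835 against 5.06 ± 3.48 CPM at LPS 2 h. The 2 labels were nearly equal at Control 2 h (4.39 ± 2.23 against 4.35 ± 1.33 CPM) and LPS 24 h (6.88 ± 1.83 against 6.61 ± 2.82 CPM). The B cell sum was lower in KO at Control 2 h (25.7 ± 6.13 against 26.4 ± 1.15 CPM) and palmitate 24 h (24.9 ± 10 against 32.8 ± 13.5 CPM). In the other conditions the B cell sum was higher in KO. The part of these lists in the differences between the labels was not tested. Irf4 had the largest averaged value, 0.52 (SE 0.26, adjusted p 0.2), and did not pass, with 1.67 (SE 0.67) at Control 2 h and 1.56 (SE 0.73) at palmitate 2 h. Irf1, Irf2, Irf7, Irf8 and Irf9 lay within 0.05 of 0, with intervals from -0.05 to 0.10, -0.10 to 0.03, -0.21 to 0.15, -0.10 to 0.00 and -0.12 to 0.05.

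**Figure D4:**
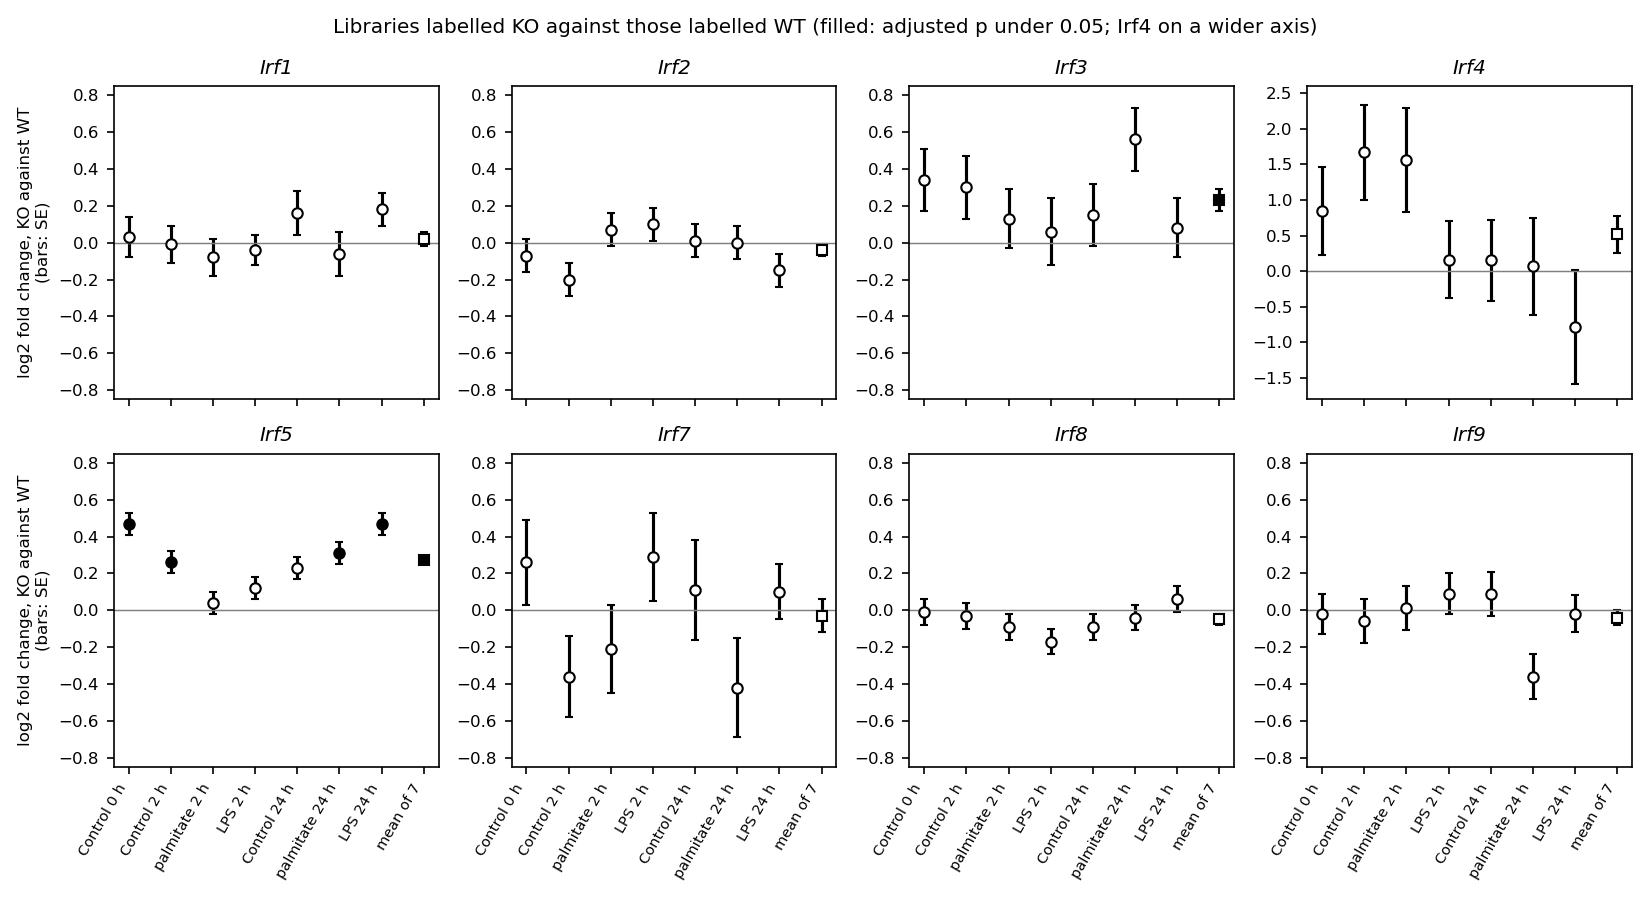
Log2 fold change between the labels, KO against WT, for the 8 IRF genes, in each of 7 conditions (circles) and averaged over them (squares), with bars of 1 SE, filled where the adjusted p was under 0.05. Irf5 lies above 0 throughout, Irf3 is filled in the average alone (0.23), and Irf4 has a wider axis and wide bars.

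The response to a treatment was compared between the labels as an interaction. None of the 8 members passed for LPS at 2 h (0% of all genes), LPS at 24 h (0.0086%), palmitate at 2 h (0%) or palmitate at 24 h (0%), by edgeR or by DESeq2, with 1, 1, 2 and 1 members at an unadjusted p under 0.05. The LPS response of Irf1 differed by -0.03 at 2 h (interval -0.29 to 0.24) and 0.01 at 24 h (-0.28 to 0.31). For Irf5 the LPS response in KO was lower by -0.14 (-0.30 to 0.02) at 2 h and higher by 0.24 (0.08 to 0.40, adjusted p 0.924) at 24 h. For Irf7 the interval at 24 h ran from -0.62 to 0.61 and for Irf4 from -2.90 to 1.02. At 2 h the LPS response of Irf7 was higher in KO by 0.65 (-0.00 to 1.31), with log2 fold changes of -0.30 in WT and 0.36 in KO. Irf2 was the member at an unadjusted p under 0.05 for LPS at 2 h, with a difference of 0.30 (0.04 to 0.56). The rise of Irf5 at 24 h of LPS, called in KO and not in WT, is therefore not shown to differ between the labels.

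The wider IRF pathway was read from 9 lists of 98 genes in all, of which 96 were in the table and 91 were tested. At 2 h of LPS in WT, 60 of the 91 rose and 6 fell, where 14% of all genes rose and 9.1% fell, with a median log2 fold change of 0.67 against -0.01 over all genes. At 24 h 66 rose and 4 fell (median 1.37 against -0.01), where 19.6% of all genes rose and 19.9% fell. The interferon-stimulated targets rose in 13 of 16 at 2 h and 16 of 16 at 24 h, with medians of 3.8 and 5.08. Cxcl10, a chemokine, stood at 575 ± 76.3 CPM at 2 h against 4.76 ± 0.526 CPM, and Ifit1, which binds viral RNA, at 629 ± 114 against 11.9 ± 1.12 CPM. The list of cytokine genes under IRF5 rose in 8 of 8 at 2 h and 5 of 8 at 24 h (medians 5.84 and 1.71), with Tnf 27.2-fold higher at 2 h (adjusted p 2.89e-40) and Ccl4 34.3-fold higher (adjusted p 4.57e-38). Of the targets of IRF1 and IRF8, 5 of 11 rose at 2 h and 10 of 11 at 24 h. The GTPase gene Gbp2 stood at 70.0 ± 4.5 CPM at 2 h and 346 ± 38.3 CPM at 24 h, with Control at 5.88 ± 1.34 and 5.52 ± 0.529 CPM. Gbp3 of the same family stood at 112 ± 9.36 and 250 ± 19 CPM.

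The genes that act on the IRF proteins moved less, by the median of each list, than the interferon-stimulated targets and the cytokine genes under IRF5. The median of the IRF1 and IRF8 targets was 0.27 at 2 h and 1.68 at 24 h. All 5 kinases rose at 2 h (median 0.41) and 3 at 24 h. Ikbke, which phosphorylates IRF3 and IRF7, rose from 87.9 ± 5.24 to 177 ± 35.9 CPM at 2 h, and Tbk1, which does the same, rose 1.33-fold (adjusted p 1.11e-05). Of 21 sensors and adaptors, 10 rose and 3 fell at 2 h. Ifih1, a sensor of double-stranded RNA, rose 7.91-fold (adjusted p 1.72e-30) and Cd14, the LPS co-receptor, 5.85-fold (adjusted p 6.39e-24), while the adaptor Mavs and the LPS receptor Tlr4 fell to 0.748 and 0.816 of Control (adjusted p 0.00588 and 0.0245). Of 11 genes for interferons, receptors and JAK-STAT partners, 8 rose at 2 h and none fell, with Jak2 3.62-fold and Ifnar2 1.68-fold higher.

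The partners of the family and the genes listed as feedback inhibitors completed the pattern. Of 9 DNA-binding and corepressor partners, 5 rose and 3 fell at 2 h. Rela, the NF-kappaB subunit, rose 2.52-fold and Ikzf1 1.44-fold, while Irf2bpl and the IRF2 corepressor Irf2bp2 fell to 0.532 (adjusted p 2.33e-09) and 0.667 (adjusted p 9.57e-08) of Control. The 5 genes tested from the list of feedback inhibitors rose at both times, Socs3 from 12.7 ± 1.57 to 762 ± 57.1 CPM at 2 h and Isg15 from 3.48 ± 1.84 to 65.7 ± 4.46 CPM. Whether each of them, Isg15 included, acts as an inhibitor in these mouse cells was not tested. Of 5 genes of alternative activation linked to IRF4, 1 rose at 2 h, the chemokine gene Ccl22 (2.52-fold, adjusted p 0.0366), and at 24 h 1 rose and 1 fell. The mannose receptor gene Mrc1 fell to 0.223 of Control (adjusted p 7.92e-21), and the arginase gene Arg1, named after its values were seen, rose 7.4-fold (2.54 ± 1.92 against 0.431 ± 0.605 CPM, adjusted p 0.00607) with overlapping libraries.

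Between the labels, averaged over the 7 conditions, 8 of the 91 pathway genes were higher and 8 lower in KO, where 6.03% of all genes were higher and 5.33% lower, with a median log2 fold change of 0.02. Both counts lay somewhat above the shares over all genes, and this difference was not tested. None of the 16 interferon-stimulated targets was called, and of the 8 cytokine genes under IRF5 1 was higher. For Il6, Il12a and Il23a, named after their values were seen, no call was possible in this average, since groups with 0 counts left SEs of 455.71, 1316.82 and 804.9 on the log2 scale. Ifnb1 and Nos2 from other lists, also named after their values were seen, could not be called for the same reason (SEs of 839.83 and 1721.22). Chil3, a chitinase-like gene from the list linked to IRF4, differed most (2.79-fold higher, log2 fold change 1.48, SE 0.14, adjusted p 4.72e-11). Granulocyte precursors express it too, and their markers summed to between 42 and 204 CPM in the KO libraries against 19.3 to 83.7 CPM in WT; their part in this difference was not tested. Ciita, the activator of MHC class II genes, was 1.49-fold higher (adjusted p 0.00154) and Jak2 1.12-fold higher (adjusted p 0.000255). Il18bp, the inhibitor of interleukin 18, was lower (0.824, adjusted p 0.00117), as were Mrc1 (0.888, adjusted p 0.00421) and the MHC class I light chain B2m (0.928, adjusted p 0.00659). Without Control 0 h, 7 in place of 16 pathway genes were called.

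The levels of the members were compared with each other across the 14 groups. Pearson r and Spearman's rho of the group means of log2 CPM are given over 14 groups that share libraries' treatments, and only as a description. Irf7 and Irf9 followed each other by both measures (r = 0.87, rho = 0.85), and Irf1 followed Irf5 (r = 0.81, rho = 0.62) and Irf9 (r = 0.65, rho = 0.68). Irf1 and Irf7 gave a low r of 0.28 and a high rho of 0.85. Irf1 averaged 507 and 490 CPM in the LPS 2 h groups and at most 98.8 CPM in any other. Irf7 averaged 1606 and 1725 CPM in the LPS 24 h groups and at most 50 CPM in any other. These groups weigh heavily in each Pearson r of Irf1 and Irf7, also in those with other genes below. Irf8 ran against Irf1 (r = -0.87) and Irf5 (r = -0.71), and by rank these values were rho = -0.12 and -0.39. Irf2 varied least, with an SD of its group means of 0.13 on the log2 scale, and Irf7 most, with 2.1. Among 7813 other genes that reached 10 CPM on average, those most like Irf1 were Tnip1 (r = 0.996), an inhibitor of NF-kappaB signalling, and Cd40 (0.995), a costimulatory receptor. Those most like Irf7 were Sp100 and Trim30a (0.996 each), and those most like Irf9 were Gm12250 (0.983) and Ifit3 (0.982). For Irf5 they were Cep85 (0.972) and Bdp1 (0.931), and for Irf8 Tab1 (0.97) and 5730409E04Rik (0.961). The closest matches of the other members were lower in r: Irf2 was matched by Tnfrsf1a (0.813) and Hlx (0.791), Irf3 by Acin1 (0.887) and Gpbp1l1 (0.884), and Irf4 by Hook3 (0.92) and Glipr1 (0.87). Spearman's rho chose other genes for 5 of the 8 members in both places, and kept 1 of the 2 for Irf2, Irf4 and Irf5.

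Libraries of the same group also differed from each other in Irf7. Outside LPS 24 h its level ran from 11.8 to 61.7 CPM, and within WT palmitate 24 h alone from 12.2 to 43.4 CPM. When each gene was set against its group mean over the 42 libraries, Irf7 and Irf9 deviated together (r = 0.51), as did Irf7 and Irf1 (r = 0.42). In the library of WT palmitate 24 h with the highest Irf7, Irf9 stood at 44.8 CPM, against 32.7 CPM in that with the lowest. The deviations of Irf7 followed the mean of the interferon-stimulated targets (r = 0.59) and of the IRF1 and IRF8 targets (r = 0.67) more than that of the cytokine genes under IRF5 (r = 0.19). Irf5 deviated with Irf3 (r = 0.45) and Irf8 (r = 0.41), and its r with the cytokine genes named for it was -0.02. The points share the depth and the composition of each library, and no test was made of these values.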

How the data were processed

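Libraries were of total RNA depleted of ribosomal RNA, from a stranded kit, with paired-end reads. The submitters' notes name fastp 0.19.11, STAR 2.7.3a and mm10, and the authors deposited raw counts per gene. The annotation and the use of strand in counting are not given in the sources used here. The headers give the group of a column without a replicate number, so the numbering of libraries is that of the columns and pairs nothing. Libraries of a group differed by more than sampling noise (chi-square per degree of freedom 1.93 to 9.32 over 42 pairs).

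From these counts, genes kept by filterByExpr (11624) were scaled by TMM and fitted in edgeR 4.0.16 (R 4.3.3) by quasi-likelihood with a mean for each of 14 groups, and 24 contrasts were tested. The test was also run on simulated counts in which well-counted genes were changed in a single group. Its outcome is not given here, and it does not cover genes with few counts such as Irf4. Positions and exon lengths came from GENCODE vM21 (GRCm38). Alternatives were RLE scaling, all genes with a count, DESeq2 1.42.0, the compared groups alone and leaving out each library.

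Named were the 8 members, genes that overlap them, at most 2 pathway genes per list and direction with the smallest adjusted p at LPS 2 h in WT, at most 3 per direction for the averaged genotype, and the 2 genes most like each member. The members, lists and tests were chosen with earlier results of these data known.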

Additional observations from a re-analysis of the deposited data

Results flagged for a closer look

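The log2 fold change of LPS against Control differed between 24 h and 2 h for most of the family, by a test of that difference in the edgeR model over 3 libraries a group. In WT it was lower at 24 h for Irf1 (-1.95), Irf4 (-3.79) and Irf5 (-0.47) and higher for Irf7 (6.47), Irf8 (0.84) and Irf9 (0.80). In the libraries labelled KO it was lower for Irf1 (-1.91) and Irf4 (-3.22) and higher for Irf7 (5.81), Irf8 (1.12) and Irf9 (0.54). Irf8 was called below Control at 2 h, and at 24 h its log2 fold change was -0.12 in WT and 0.02 in KO. The values of Irf4 rest on 0 to 32 counts a library. Groups of 3 libraries were not searched for single outlying libraries.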

How the results depend on the processing

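No paired analysis was possible because the columns of the count table carry no replicate numbers. Of 192 values of a member in a comparison, 41 were called, 32 of these under every alternative run and 9 not under at least 1, and 0 called values changed sign. Another 53 values, called in neither fit, changed sign under an alternative, the largest being 0.45. With all genes that had a count, every added member call was for Irf7. Palmitate gave 2 calls in place of 1, interactions 1 in place of 0, LPS 19 in place of 17 and genotype within conditions 5 in place of 4. Irf7 was also added for Control 2 h against Control 0 h. In that fit the prior degrees of freedom were infinite (19.7 in the filtered fit), so a gene's own spread was not used. Without Control 0 h, the genotype averaged over conditions gave 1 member in place of 2 and 7 pathway genes in place of 16. Leaving out each library gave 0 to 1 member calls for palmitate, 3 to 4 for genotype within conditions, 16 to 17 for LPS, 4 to 7 for time in Control, 11 to 12 for the late against the early LPS response, 2 for the averaged genotype and 0 for interactions, with 125 to 136 pathway calls for LPS in WT and 11 to 17 for genotype. A group left with 2 libraries took its spread from all groups. RLE, DESeq2 and the fit of only the groups compared kept each count within 1.5 times. Irf4 was dropped by the filter in some fits of only the groups compared, and has no value there. Depth limits Irf4, which had 3 counts or fewer in 8 of 42 libraries.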
